A study of Mus musculus with 9 samples.

Results

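Scavenger receptors are membrane proteins that bind modified lipoproteins, microbes, cell debris and other polyanionic ligands. The 10 genes described here were taken by gene symbol from the deposited expression table, in which each of the 10 symbols stood for 1 row of 46078 genes. They are the class A receptors Marco, Msr1 and Colec12, the CD36 family (Cd36, Scarb1 and Scarb2), the lectin-like receptor Olr1, the stabilins Stab1 and Stab2, and the haemoglobin receptor Cd163.

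Macrophages use these receptors to take up particles without the antibody or complement coats that other phagocytic receptors need, and pass the cargo to lysosomes. Uptake of oxidised low density lipoprotein through MSR1 and CD36 is not shut off by the cell's cholesterol content, which is the textbook route to the foam cell. Resident macrophages carry different sets: MARCO is well known from alveolar macrophages, CD163 from macrophages that clear red cells, and the stabilins from the sinusoidal endothelium of the liver, with STAB1 also on tissue macrophages.

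Macrophages of the inbred mouse strain C57BL/6J were cultured, and their RNA was sequenced in 9 libraries, 3 per culture. BMM were grown from bone marrow, in a medium that the labels do not describe. FLM_M came from fetal liver of gestational day 15 to 19 and grew with 20% fetal bovine serum plus 30% supernatant of L cells, which supplies M-CSF (macrophage colony-stimulating factor). FLM_G came from fetal liver of the same stages and grew with 10% serum and recombinant GM-CSF, the granulocyte-macrophage colony-stimulating factor, at 30 ng/ml. The labels name no genetic change and no other agent, the series title calls the M-CSF-responsive macrophages immortal, and all cells had been cultured for at least 8 weeks. Each culture was plated into 3 wells, 1 per library, and the labels do not say whether the wells go back to different animals or cultures, so a p-value here reflects well-to-well spread that may be purely technical. FLM_M and FLM_G differ in serum as well as in growth factor, and BMM and FLM differ in tissue and age of origin, so the parts of these factors cannot be told apart.

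Levels are FPKM, read fragments divided by transcript length and by library size, so they can be compared between genes per length, and were scaled between libraries. The smallest steps of the values put the libraries at 28570000 to 35680000 reads. All 7 macrophage markers examined, among them Csf1r and Adgre1, were above 1 FPKM in each culture. The markers of liver sinusoidal and other endothelium, which matter for the stabilins, summed to 3.54 to 3.85 FPKM in BMM, 8.41 to 10.3 in FLM_M and 5.45 to 5.75 in FLM_G. Among them Kdr was at 5.77 to 7.59 in FLM_M and Cdh5 at 4.19 to 4.34 in FLM_G. Oit3 was at 1.18 to 2.26 over all 9 libraries, while Clec4g was at 0 in all of them. Of the 6 hepatocyte markers, Alb, Ttr, Apoa1, Serpina1a and Fgb were at 0 everywhere and Afp was at 0.79 to 2.57, and markers of erythroid, fibroblast, neutrophil, lymphoid, mast and megakaryocytic cells summed to at most 0.36 FPKM per type. Xist was at 0 to 0.0044 FPKM in BMM and 41.3 to 74.3 in the 6 fetal liver libraries, while the Y-linked Ddx3y was at 8.47 to 10.4 in BMM and at most 0.016 in the others. Sex therefore went with the origin of the cells, and the part of each in a difference between BMM and FLM cannot be told apart.

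FLM_G replicate 3 was lower than the other FLM_G libraries in 2 receptor genes. Its Cd36 level was 65.0% and its Msr1 level 77.3% of the mean of the other 2 FLM_G libraries, while Marco, Scarb1, Scarb2, Colec12 and Olr1 were at 92.2% to 109%. The reason was not tested. The differences of FLM_G in these 2 genes are given with and without it, and the shares of the summed level only with it.

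The 10 receptor genes fell into distinct patterns over the 3 cultures. Marco and Olr1 were highest in FLM_G, where Marco was among the most abundant RNAs of the cell. Colec12 was highest in FLM_M. Stab1 was high in BMM and FLM_M and close to 0 in FLM_G. Msr1 and Cd36 were abundant in all cultures, and their means differed by less than 1.5-fold between any 2 cultures with scaling and all libraries. The difference exceeded 1.5-fold between FLM_G and BMM without scaling or without FLM_G replicate 1. For Msr1 it did so between FLM_G and FLM_M as well without scaling. Scarb1 and Scarb2 lay in between, and Stab2 and Cd163 were below 1 FPKM in every library.

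**Figure D1:**
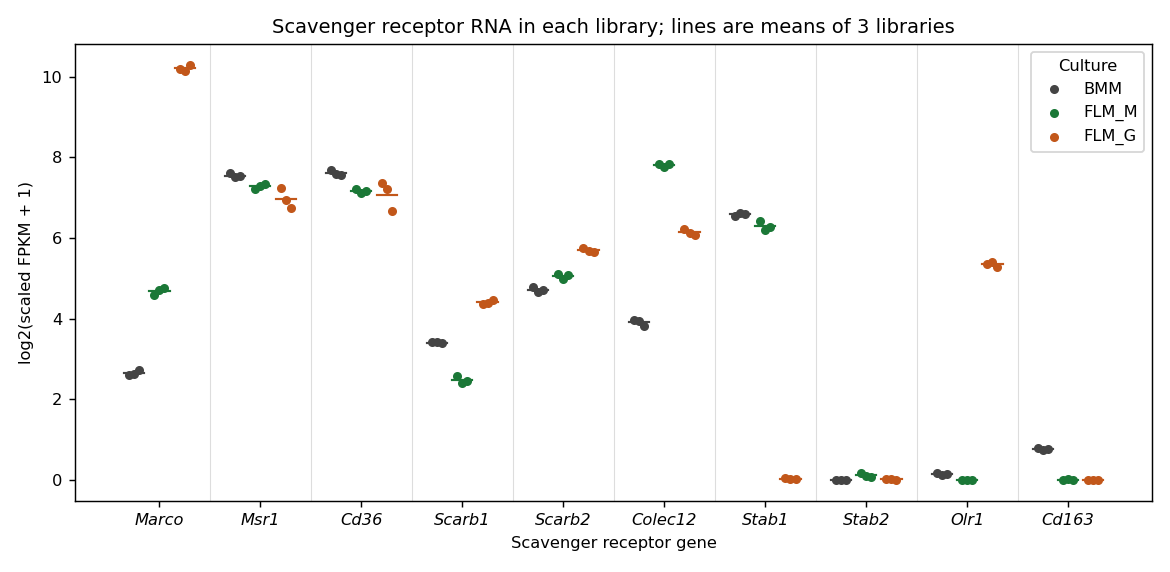
Level of each scavenger receptor gene (horizontal axis) in each of the 9 libraries, as log2(scaled FPKM + 1) on the vertical axis; points are libraries and short lines are means of 3. Marco and Olr1 stand highest in FLM_G, Colec12 in FLM_M, and Stab1 lies near 0 in FLM_G.

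The sequences just upstream of the genes with the widest differences are given for orientation, since Marco and Olr1 were highest in FLM_G and Stab1 was lowest there. Each is the 250 bases before the RefSeq transcription start on GRCm38.p6, 5′ to 3′ on the gene's own strand, which is the minus strand in all 3 cases: Marco chr1:120505025-120505274, Olr1 chr6:129507166-129507415 and Stab1 chr14:31168642-31168891. Capitals mark a match to 1 of 4 short motifs.
Marco: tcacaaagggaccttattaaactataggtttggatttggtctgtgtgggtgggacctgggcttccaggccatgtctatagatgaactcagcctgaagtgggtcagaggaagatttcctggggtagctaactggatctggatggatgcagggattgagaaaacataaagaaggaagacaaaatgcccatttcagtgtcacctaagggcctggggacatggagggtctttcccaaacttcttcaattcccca
Olr1: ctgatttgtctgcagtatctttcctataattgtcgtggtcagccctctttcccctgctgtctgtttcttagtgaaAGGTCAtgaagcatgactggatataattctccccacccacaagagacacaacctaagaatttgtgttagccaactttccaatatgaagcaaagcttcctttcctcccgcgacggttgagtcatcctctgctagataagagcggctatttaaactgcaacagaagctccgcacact
Stab1: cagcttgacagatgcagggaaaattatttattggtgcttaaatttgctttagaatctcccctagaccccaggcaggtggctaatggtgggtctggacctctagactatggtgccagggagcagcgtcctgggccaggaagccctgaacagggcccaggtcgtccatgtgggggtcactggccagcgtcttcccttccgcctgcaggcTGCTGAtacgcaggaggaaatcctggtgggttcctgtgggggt

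The motifs searched on both strands were TGCTGA (part of the element bound by MAF factors), AGGTCA (part of nuclear receptor elements), TTCNNNGAA (STAT factors) and TGACNNNGC (the core of the antioxidant response element). The Stab1 sequence held TGCTGA 43 bases before the start, and the Olr1 sequence held AGGTCA 175 bases before it. The Marco sequence held none of the 4. Among 32851 RefSeq promoters, windows of this length held TGCTGA in 16.1%, AGGTCA in 14.0%, TTCNNNGAA in 7.02% and TGACNNNGC in 10.2%, so single matches are common. RefSeq promoters were matched for 7 of the 10 receptor genes. Of the 4 not printed, Cd36 held TGCTGA and AGGTCA, Scarb2 held TGCTGA and TGACNNNGC, Stab2 held AGGTCA, and Cd163 held none. A match is only a run of letters, and binding was not measured.

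Differences were tested with limma on log2(FPKM + 1) over 11952 genes, a scale that understates the change of low genes, and a difference was called where the Benjamini-Hochberg adjusted p was below 0.05. Of the 10 receptor genes 8 passed the filter of 1 FPKM in 3 libraries. Olr1 passed it only through FLM_G, where it was high, so its calls in the 2 comparisons with FLM_G are no test. Between FLM_M and BMM, 3 of the 8 were higher, 4 lower and 1 was not called, where 44.6% of all genes tested were called, 22.7% higher and 21.9% lower. Between FLM_G and BMM 5 were higher and 3 lower, with 68% of all genes called (33.8% higher, 34.1% lower), and between FLM_G and FLM_M 4 were higher, 3 lower and 1 not called, with 70.6% of all genes called (35.5% higher, 35.1% lower). Without Olr1 the 7 others gave 3 higher and 3 lower in FLM_M against BMM, 4 and 3 in FLM_G against BMM, and 3 and 3 in FLM_G against FLM_M. The libraries of the groups compared did not overlap in 8, 8 and 6 of the 8 receptor genes, Olr1 included each time. This held for 57.3%, 73.2% and 72.4% of all genes tested. The counts were not tested against that background, and the description rests on the single genes. The median log2 change of the 8, Olr1 included, was −0.21, 0.98 and 0.27 in the same order, where the median of all genes tested was −0.0015, −0.00032 and 0.0017. Without Olr1 the middle value of the 7 others was 0.97 (Scarb2) in FLM_G against BMM and −0.09 (Cd36) in FLM_G against FLM_M. The positive median against FLM_M thus rests on Olr1.

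Scaling affects the balance of calls. As deposited, without scaling, the log2 change of the median gene was −0.34 in FLM_G against BMM and −0.39 against FLM_M. The table then gave 2081 genes higher and 6775 lower in FLM_G than in BMM, against 4044 and 4081 with scaling, and 2218 higher and 7075 lower than in FLM_M, against 4246 and 4195. All changes of receptor genes below are relative to the scaled median, and the directions of the called ones were the same without scaling.

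**Figure D2:**
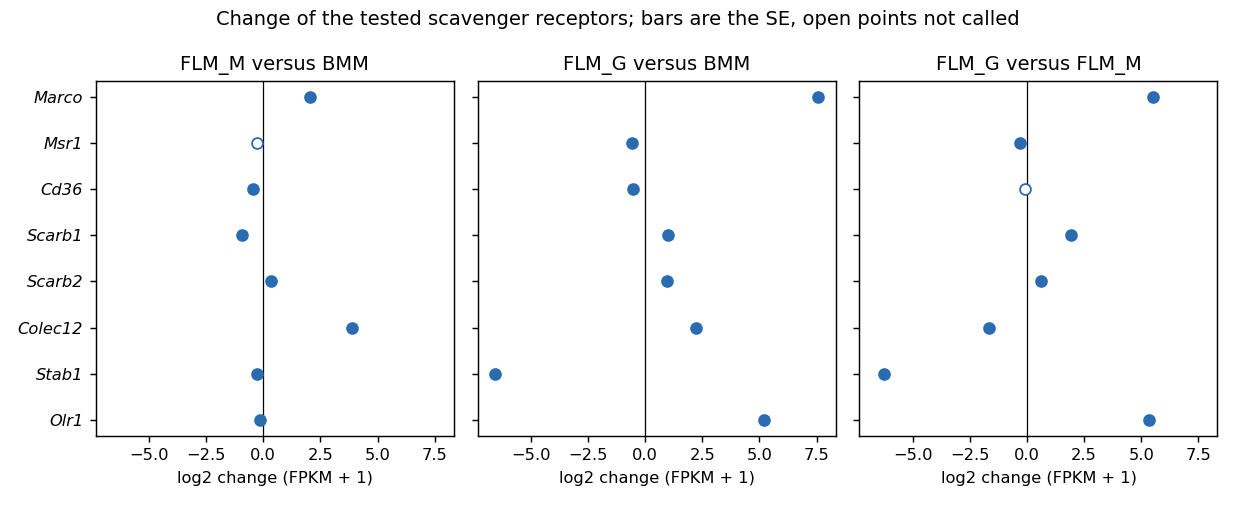
Difference of log2(scaled FPKM + 1) on the horizontal axis for the 8 tested receptor genes in the 3 comparisons; filled points are called at adjusted p under 0.05, open points are not, and bars (SE, mostly smaller than the point) come from the limma fit. Msr1 in FLM_M against BMM and Cd36 in FLM_G against FLM_M are the open points, and the Olr1 points of the comparisons with FLM_G are a description only.

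Among the class A receptors, Marco (ENSMUSG00000026390, GRCm38 chromosome 1, 120474538 to 120505024) encodes a trimeric receptor with a collagen-like stalk that binds bacteria and inhaled particles. Its level was 5.11, 5.14 and 5.57 FPKM in BMM, 23.2, 25.3 and 26.1 in FLM_M, and 1168, 1134 and 1253 in FLM_G. The cultures did not overlap, and every library of a culture was several-fold above all libraries of the next lower one. FLM_M exceeded BMM by 2.04 on the log2 scale (SE 0.06, limma adjusted p = 2.43e-08), and FLM_G exceeded FLM_M by 5.52 (SE 0.06, adjusted p = 1.62e-11). In FLM_G the mean of 1185 ± 61 FPKM (SD, n = 3) was 225 times that of BMM and ranked 52 of 46078 genes, against rank 6798 in BMM and 2147 in FLM_M.

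Msr1 (ENSMUSG00000025044, chromosome 8, 39581685 to 39642673), the classical receptor for acetylated and oxidised low density lipoprotein, was high in all cultures. It stood at 193.6, 181.0 and 183.3 FPKM in BMM, 148.1, 154.1 and 160.6 in FLM_M, and 150.3, 122.9 and 105.6 in FLM_G. All FLM libraries were below all BMM libraries, while FLM_M and FLM_G overlapped. The log2 change from BMM to FLM_G was −0.57 (SE 0.11, limma adjusted p = 0.00174), −0.43 (adjusted p = 0.00345) without FLM_G replicate 3 and −0.99 (adjusted p = 6.12e-05) without scaling. It was not called against a 1.5-fold change. Nor was it called on the deposited counts, at −0.38 (adjusted p = 0.307) by edgeR and −0.45 (adjusted p = 0.394) by DESeq2. The log2 change from BMM to FLM_M, −0.27, was not called (adjusted p = 0.0821) but was called in a fit of only those 6 libraries (0.00519) and without FLM_G replicate 1 (0.0116) or FLM_G replicate 3 (0.0249). The call of FLM_G below FLM_M (−0.30, adjusted p = 0.0372) was lost when any of 5 libraries was left out, namely BMM replicate 3 (0.0523), FLM_M replicate 2 (0.0666), FLM_M replicate 3 (0.0905), FLM_G replicate 2 (0.109) and FLM_G replicate 3. Without this last library the difference shrank to −0.16 (adjusted p = 0.143). With all libraries but no scaling it was −0.78 (adjusted p = 0.000249).

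Colec12 (ENSMUSG00000036103), a collagenous receptor with a C-type lectin domain that binds microbial sugars and oxidised lipoprotein, had the opposite order in the fetal liver cultures to Marco. It stood at 14.7, 14.4 and 13.2 FPKM in BMM, 226.7, 215.7 and 226.0 in FLM_M, and 73.8, 69.2 and 65.9 in FLM_G. No cultures overlapped. FLM_M exceeded BMM by 3.89 on the log2 scale (SE 0.06, limma adjusted p = 6.54e-10), and FLM_G differed from FLM_M by −1.67 (SE 0.06, adjusted p = 1.55e-08) but still exceeded BMM by 2.23 (adjusted p = 2.7e-09). The mean of FLM_M was 222.8 ± 6.1 FPKM (SD, n = 3), 15.8 times that of BMM. A processed pseudogene, Gm7497, lies within Colec12 on the same strand, but its deposited FPKM was at most 1.25 in any library.

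In the CD36 family, Cd36 (ENSMUSG00000002944, chromosome 5, 17781690 to 17888801) encodes a receptor for oxidised lipoprotein, long-chain fatty acids and thrombospondin. It stood at 205.4, 190.7 and 187.6 FPKM in BMM, 147.5, 138.4 and 141.9 in FLM_M, and 162.1, 147.1 and 100.5 in FLM_G. All 6 FLM libraries were below all BMM libraries, and the FLM_G libraries spread around those of FLM_M. The difference from BMM was −0.44 on the log2 scale in FLM_M (SE 0.15, limma adjusted p = 0.0418) and −0.54 in FLM_G (SE 0.15, adjusted p = 0.0125). The FLM_M call was lost without any 1 of the 6 libraries compared (adjusted p 0.0717 to 0.112), without scaling (0.0798) and without the filter (0.0674). The FLM_G difference from BMM was −0.31 (adjusted p = 0.00408) without FLM_G replicate 3 and −0.96 (adjusted p = 0.000515) without scaling. On the deposited counts it was not called, at −0.26 (adjusted p = 0.541) by edgeR and −0.36 (adjusted p = 0.656) by DESeq2. Neither difference from BMM was called against a 1.5-fold change. FLM_G and FLM_M were not called different (−0.09, adjusted p = 0.614). That value became −0.57 (adjusted p = 0.00897) without scaling, and 0.14 (adjusted p = 0.104) without FLM_G replicate 3.

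Scarb1 (ENSMUSG00000037936, chromosome 5, 125277087 to 125341094) encodes the receptor for high density lipoprotein, through which cells exchange cholesterol esters selectively. It stood at 9.65, 9.76 and 9.44 FPKM in BMM, 4.95, 4.30 and 4.45 in FLM_M, and 19.5, 20.0 and 20.9 in FLM_G. The 3 cultures did not overlap, and FLM_M was lowest. FLM_M differed from BMM by −0.93 on the log2 scale (SE 0.06, limma adjusted p = 2.2e-06), and FLM_G lay 0.99 above BMM (SE 0.06, adjusted p = 5.56e-07) and 1.93 above FLM_M (adjusted p = 5.66e-09). On the deposited counts, which hold 6 to 29 reads of Scarb1 per library, FLM_M against BMM was not called, at −0.69 by edgeR (adjusted p = 0.24) and −0.78 by DESeq2 (adjusted p = 0.463). FLM_G against BMM was called there by edgeR (1.16, adjusted p = 0.0084) but not by DESeq2 (1.11, adjusted p = 0.0952).

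Scarb2 (ENSMUSG00000029426, chromosome 5, 92441314 to 92506833) encodes LIMP-2, an abundant protein of the lysosomal membrane. It stood at 26.5, 24.4 and 25.2 FPKM in BMM, 33.5, 30.6 and 33.0 in FLM_M, and 52.7, 50.4 and 49.0 in FLM_G. The order BMM, FLM_M, FLM_G held in every library. The step from BMM to FLM_M was 0.34 on the log2 scale (SE 0.05, limma adjusted p = 0.000968) and that from FLM_M to FLM_G was 0.63 (SE 0.05, adjusted p = 7.14e-06). The latter was 0.16 (adjusted p = 0.034) without scaling, and it was not called against a 1.5-fold change (0.581) or on the deposited counts, at 0.22 (adjusted p = 0.585) by edgeR and 0.20 (adjusted p = 0.825) by DESeq2. The step from BMM to FLM_M was not called against a 1.5-fold change either. On the counts this step was called by edgeR (1.00, adjusted p = 0.0198) but not by DESeq2 (0.95, adjusted p = 0.221).

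Olr1 (ENSMUSG00000030162, chromosome 6, 129485244 to 129507165) encodes LOX-1, the lectin-like receptor for oxidised low density lipoprotein, best known from endothelium. It stood at 0.122, 0.090 and 0.112 FPKM in BMM, was listed at 0 in all FLM_M libraries, and stood at 40.1, 41.4 and 37.8 in FLM_G. The level in FLM_G was 39.8 ± 1.8 FPKM (SD, n = 3), above every BMM and FLM_M library. As a description, with no test because the FLM_G level itself let the gene into the fit, FLM_G exceeded BMM by 5.20 and FLM_M by 5.35 on the log2(FPKM + 1) scale. The BMM values correspond to 11 to 15 reads per library, and the call of FLM_M below BMM (−0.15, adjusted p = 0.0435) rests on these. It was lost without the filter (0.0603), with the replicate number as a block (0.0753) and when any BMM or FLM_M library was left out (0.085 to 0.12).

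Stab1 (ENSMUSG00000042286, chromosome 14, 31139013 to 31168641) encodes stabilin-1, a large receptor that takes up acetylated lipoprotein and secreted matrix proteins. It stood at 92.7, 97.1 and 95.0 FPKM in BMM, 85.1, 71.8 and 75.6 in FLM_M, and 0.041, 0.016 and 0.017 in FLM_G. The FLM_G values stand for 7.67, 3.20 and 3.44 reads per library, against 20200 to 28610 in the others. On the log2(FPKM + 1) scale FLM_G differed from BMM by −6.55 (SE 0.06, limma adjusted p = 1.19e-11) and from FLM_M by −6.26 (adjusted p = 1.13e-11), sizes that the pseudocount limits. FLM_M differed from BMM by −0.29 (adjusted p = 0.00544). The 3′ end of Stab1 overlaps Nt5dc2 on the opposite strand by 112 bases, and the deposited FPKM of Nt5dc2 was 88.2 to 99.3 in BMM, 23.6 to 24.6 in FLM_M and 2.30 to 2.86 in FLM_G. How far reads of the overlap entered either gene was not tested. Since these are bulk cultures, fewer cells with a given RNA and less of it per cell cannot be told apart.

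Stab2 (ENSMUSG00000035459, chromosome 10, 86841198 to 87008025), the hyaluronan receptor of liver sinusoidal endothelium, did not pass the filter. It was listed at 0 in 2 BMM libraries and at 0.0042 in the third, at 0.126, 0.074 and 0.049 FPKM in FLM_M, and at 0.020, 0.023 and 0 in FLM_G. All FLM_M libraries lay above those of the other cultures, at 16.2 to 41.4 reads. The deposited counts had another order, with 0, 2 and 1 in FLM_M, 1, 3 and 2 in BMM and 3, 3 and 4 in FLM_G, and no difference was called by DESeq2 (adjusted p 0.0993 to 0.599). In a fit without the filter FLM_M exceeded BMM by 0.11 on the log2 scale (SE 0.02, limma adjusted p = 0.01). The sum of endothelial markers was highest in FLM_M, which rests on Kdr. In FLM_M Kdr was at 5.77 to 7.59 FPKM, Oit3 at 1.87 to 1.96 and Cdh5 at 0.38 to 0.56. Pecam1 was at 0.22 to 0.26 and Egfl7 at 0.08 to 0.12. The mean of Pecam1 was also highest in FLM_M. That of Cdh5 was highest in FLM_G, at 4.28 FPKM against 0.46 in FLM_M, and those of Oit3 and Egfl7 were highest in BMM. Clec4g, Lyve1 and Tek were at 0 in FLM_M. The part of this sum in the Stab2 values was not tested.

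Cd163 (ENSMUSG00000008845, chromosome 6, 124304656 to 124330527), the receptor for haptoglobin-bound haemoglobin, stood below the filter as well. It was at 0.720, 0.683 and 0.690 FPKM in BMM, at 0, 0.013 and 0 in FLM_M, and listed at 0 in FLM_G. BMM was thus above every FLM library. A fit without the filter gave −0.77 on the log2 scale for FLM_M (SE 0.01, limma adjusted p = 1.65e-08) and −0.77 for FLM_G (SE 0.01, adjusted p = 4.2e-09) against BMM. The deposited read counts of Cd163 had the same order, with 533, 490 and 580 in BMM and 0 in all 6 FLM libraries, but in BMM they came to 471.3% to 502.0% of the reads that the FPKM stands for.

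**Figure D3:**
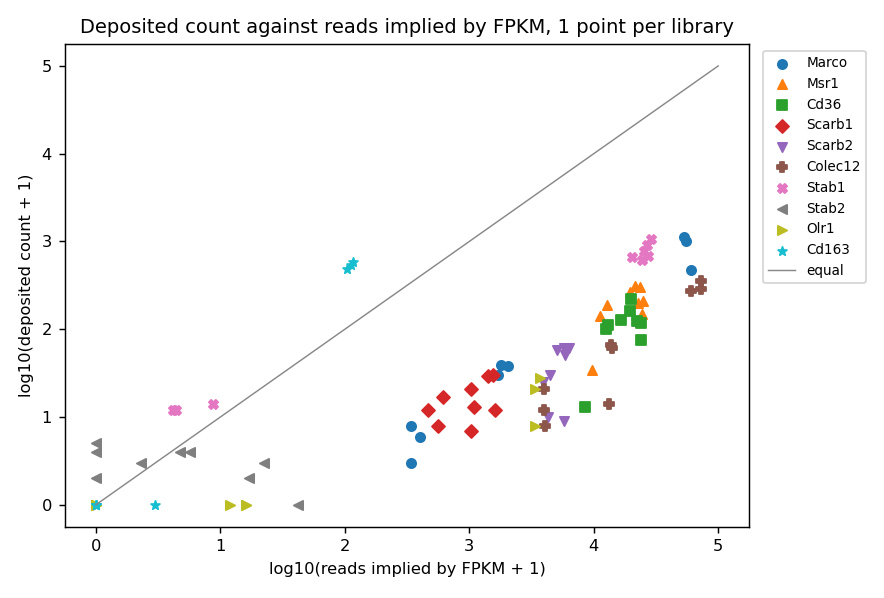
Deposited count (vertical axis) against the reads implied by FPKM (horizontal axis), both as log10(value + 1), for the 10 receptor genes with 1 point per library; the line marks equality. Points of most receptors lie far below the line, and Cd163 in BMM, Stab1 in FLM_G and some Stab2 points lie above it.

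Added up over the 10 genes, scavenger receptor RNA was 530.6 ± 15.6 FPKM in BMM, 659.1 ± 16.3 in FLM_M and 1628 ± 41 in FLM_G (SD, n = 3 each). In BMM Cd36 and Msr1 made up 36.7% and 35.0% of this sum and Stab1 17.9%. In FLM_M Colec12 had the largest share, 33.8%, followed by Msr1 with 23.4%, Cd36 with 21.6% and Stab1 with 11.8%. In FLM_G Marco alone made up 72.8 ± 3.5%, against 0.995% in BMM and 3.78% in FLM_M, while Cd36 and Msr1 had 8.39% and 7.75% and Stab1 0.0015%.

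**Figure D4:**
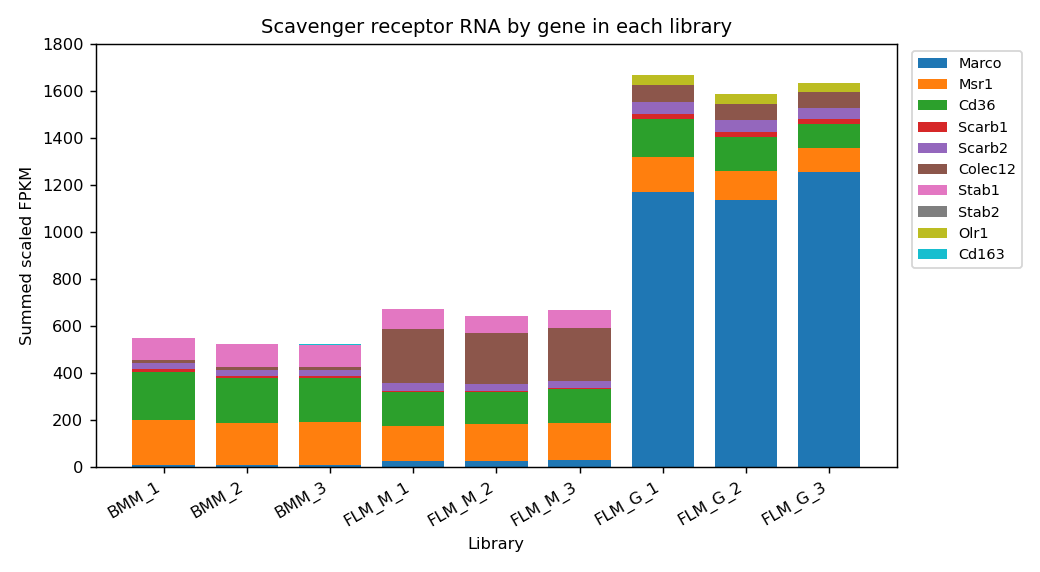
Scaled FPKM of the 10 scavenger receptor genes stacked for each of the 9 libraries (vertical axis, FPKM per length). The BMM libraries reach 520.2 to 548.5 and are mostly Cd36, Msr1 and Stab1, the FLM_M libraries reach 640.3 to 669.2 with Colec12 added, and the FLM_G libraries reach 1585 to 1667 and are mostly Marco.

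Genes with the pattern most like each receptor were found by the root mean square difference of centred log2(FPKM + 1) over the 9 libraries. For Marco these were Atp6v0d2, a proton pump subunit (0.26), and the formyl peptide receptors Fpr1 (0.37) and Fpr2 (0.40). Atp6v0d2 stood at 5.32 ± 0.29 FPKM in BMM, 15.8 ± 0.8 in FLM_M and 954.2 ± 49.9 in FLM_G. For Olr1 the nearest were F10 (0.11), Ear6 (0.12) and Ly75 (0.12), each at 33.4 to 34.6 FPKM in FLM_G and at most 0.11 elsewhere on average. For Stab1 they were Adam8 (0.12), Fcrls (0.21) and Ctla2b (0.24), and for Colec12 the inhibitory Fc receptor Fcgr2b (0.22), Stk32c (0.38) and Cdkn2a (0.44). Fcgr2b stood at 4.91 ± 1.03 FPKM in BMM, 93.6 ± 7.5 in FLM_M and 21.9 ± 2.2 in FLM_G.

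Other receptors with scavenger activity were examined from a list of 13, of which 10 were tested. Between FLM_M and BMM 5 were higher and 4 lower, between FLM_G and BMM 4 and 3, and between FLM_G and FLM_M 5 and 3, where 44.6%, 68% and 70.6% of all genes were called. These counts include Ager, which passed the filter only through FLM_G, and Scara3, which passed it only through FLM_M. Their calls in comparisons with the culture where they were high are no test. Clec7a (dectin-1), a beta-glucan receptor, rose with Marco and Olr1 in FLM_G, from 6.34 ± 0.48 FPKM in BMM and 11.4 ± 1.2 in FLM_M to 894.6 ± 40.0. The symbol Clec7a stood for 2 rows, and these values are those of only 1 of them. Mrc1, the mannose receptor, stood at 44.7 ± 4.2, 87.0 ± 2.9 and 232.4 ± 18.5. Cxcl16, a membrane-bound receptor for oxidised lipoprotein that also serves as a chemokine, fell in FLM_G with Stab1, from 30.9 ± 1.6 in BMM and 39.0 ± 0.6 in FLM_M to 0.22 ± 0.03. Scarf1 fell in FLM_M, from 5.77 ± 0.19 to 0.32 ± 0.07. All these changes had limma adjusted p of at most 1.66e-05.

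Genes that handle lipoprotein lipid after uptake were a list of 11, all tested. In FLM_M 3 were higher and 6 lower than in BMM, in FLM_G 6 were higher and 3 lower than in BMM, and 8 were higher and 2 lower in FLM_G than in FLM_M, beside 44.6%, 68% and 70.6% of all genes called. The fatty acid carriers Fabp4 and Fabp5 followed the order of Marco, Fabp5 at 29.0 ± 0.8 FPKM in BMM, 132.3 ± 11.9 in FLM_M and 614.3 ± 17.2 in FLM_G, and Fabp4 at 1.10 ± 0.08, 7.24 ± 0.70 and 71.8 ± 5.2. Lpl, lipoprotein lipase, followed that of Scarb1, at 279.0 ± 8.9, 155.0 ± 10.8 and 1233 ± 112, and so did Lipa, the lysosomal lipase, which fell in FLM_M from 419.2 ± 6.2 to 217.5 ± 14.5. The cholesterol exporters moved apart in FLM_G: Abcg1 rose from 4.35 ± 0.19 in BMM to 126.0 ± 8.0, and Abca1 fell from 7.44 ± 0.99 in FLM_M to 0.79 ± 0.22. Plin2, the coat protein of lipid droplets, was not called in FLM_M or FLM_G against BMM, at 140.1 ± 1.5, 138.4 ± 3.3 and 152.3 ± 9.2.

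Of 12 co-receptors and kinases that work with CD36, 11 were tested, and 6 were higher and 3 lower in FLM_M than in BMM, 6 and 4 in FLM_G against BMM, and 5 and 5 in FLM_G against FLM_M (all genes: 44.6%, 68% and 70.6% called). The tetraspanin Cd9 fell in FLM_M from 169.0 ± 8.0 to 81.4 ± 6.3 FPKM and rose in FLM_G to 1440 ± 57. Tlr2 rose over the cultures, at 23.3 ± 0.8, 36.6 ± 1.8 and 89.8 ± 2.1. Fyn, a kinase of the SRC family, fell in FLM_G to 0.39 ± 0.04 from 17.4 ± 0.1 in BMM and 27.6 ± 0.7 in FLM_M, while Syk rose to 67.0 ± 1.7 from 14.3 ± 1.5 in FLM_M.

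Among the 7 tested partners of LIMP-2 in the lysosome, 2 were higher and 4 lower in FLM_M than in BMM, 4 and 2 in FLM_G against BMM, and 3 and 3 in FLM_G against FLM_M. Psap, the precursor of the saposins, rose in FLM_G to 5599 ± 190 FPKM from 1168 ± 20 in BMM and 698.8 ± 15.3 in FLM_M. Of the 7 tested genes of haemoglobin and haem handling, 1 was higher and 5 lower in FLM_M than in BMM, 3 and 3 in FLM_G against BMM, and 4 and 2 in FLM_G against FLM_M. For both lists the shares of all genes called were 44.6%, 68% and 70.6%. Hmox1, haem oxygenase, fell from 746.7 ± 25 in BMM to 488.0 ± 32.2 in FLM_M and 172.5 ± 16.3 in FLM_G. Hp, haptoglobin, was at 0.07 ± 0.06, 0.01 ± 0.02 and 17.6 ± 1.3. Hp passed the filter only through FLM_G, where it was high, so its calls in the comparisons with FLM_G, counted above, are no test.

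Of 10 transcription factors known to act on scavenger receptor genes, 2 were higher and 3 lower in FLM_M than in BMM, 5 and 2 in FLM_G against BMM, and 6 and 3 in FLM_G against FLM_M, with 44.6%, 68% and 70.6% of all genes called. Maf fell in FLM_G, from 56.2 ± 2.4 FPKM in BMM and 46.3 ± 4.8 in FLM_M to 0.24 ± 0.05. Pparg rose there from 10.3 ± 0.5 and 9.80 ± 0.17 to 67.9 ± 4.3, and Cebpb from 58.0 ± 4.6 in BMM to 367.3 ± 45.9. Nr1h3, which encodes LXR alpha, stood at 4.24 ± 0.11 in BMM, 0.12 ± 0.04 in FLM_M and 25 ± 3.3 in FLM_G. Spi1, the macrophage factor PU.1, was not called between FLM_M and BMM, at 93.4 ± 7.6 and 86.8 ± 2.6.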

How the data were processed

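RNA of 3 mouse macrophage cultures was measured in 9 libraries, with stranded mRNA libraries and single-end reads of 101 cycles, per the labels' protocols. The submitters' processing notes name HISAT2, StringTie, DESeq2, cutadapt, FastQC and bcl2fastq, with builds GRCm38 and mm10. Neither their roles nor their versions are given in the sources used here. The authors deposited FPKM per gene and, in another table over the same genes, whole-number read counts. The deposited counts summed to 782400 to 1170813 per library, a median 0.39% to 1.19% of the reads implied by FPKM, with 36.1% of them in genes whose mean FPKM was below 0.5, so FPKM was the measure and counts an alternative.

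FPKM were divided by unweighted TMM factors (edgeR 4.0.16; 0.80 to 1.14). Genes with at least 1 FPKM in 3 libraries (11952) were fitted in R 4.3.3 by limma 3.58.1 with a trend, on log2(FPKM + 1), in a model of 1 mean per culture that used all 9 libraries (6 residual degrees of freedom). The fit was tested on simulated data. Reads per library were taken from the steps of low FPKM, as the depth that put the largest share of them near whole reads. At that depth 28.5% to 33.8% lay within 0.02 of a whole read. Chance gives 4% for a depth fixed beforehand, which is not an exact yardstick for a depth chosen this way. Locations come from GENCODE M21 and promoters from RefSeq. Alternatives were RLE, upper-quartile or no scaling, no filter, a filter of 5 FPKM, each library left out, fits of the 6 libraries of a comparison alone, a smaller pseudocount (0.1), a block by replicate number, a test against a 1.5-fold change, and edgeR and DESeq2 1.42.0 on the counts. Leaving out libraries from the summed level was added after seeing the data.

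The 10 members and all lists were chosen with earlier results of these data known. Genes named were the 10 receptors; per list and comparison up to 4 called genes, taken by size of change, that reached a mean of 5 FPKM in the higher culture and up to 2 uncalled ones with at least 50; and the 3 genes closest in pattern to each receptor. Some genes that this rule names are left out of the text.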

Additional observations from a re-analysis of the deposited data

Results flagged for a closer look

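The deposited read counts, only an alternative to FPKM here, exceeded the reads implied by FPKM for 3 receptor genes in some libraries. These genes were below 1 FPKM there. Cd163 had 533, 490 and 580 counts in the BMM libraries, where its FPKM stands for 110.2, 104.0 and 115.5 reads, and 0 counts in all 6 FLM libraries. No annotated gene overlaps Cd163 on either strand. Stab1 had 13, 11 and 11 counts in the FLM_G libraries, where its FPKM stands for 7.67, 3.20 and 3.44 reads, against 620 to 1053 counts in the other libraries. Stab2 had 4 counts in FLM_G replicate 3, where its FPKM is listed at 0, and 0 to 3 in the other 8 libraries. The source of the excess was not tested, nor was whether the counts were taken on the opposite strand.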

How the results depend on the processing

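Of the 8 receptor genes tested, 7, 8 and 7 were called in FLM_M against BMM, FLM_G against BMM and FLM_G against FLM_M. Leaving out each library in turn gave 5 to 7, 7 to 8 and 5 to 7, and the summed level ranged from 521.7 to 535.8 FPKM in BMM, 654.0 to 668.5 in FLM_M and 1609 to 1650 in FLM_G. Olr1 left the table whenever an FLM_G library was left out, because it then no longer passed the filter. With the replicate number as a block the counts were 6, 8 and 7. Deviations of same-numbered libraries correlated at −0.077 to 0.090, which gave no sign of pairing, but 3 libraries per culture cannot exclude it. Against a 1.5-fold change 3 genes were called in FLM_M against BMM. On the deposited counts, which hold few reads, edgeR called 4 in FLM_G against FLM_M (38.1% of all genes it tested). DESeq2 called 4 in FLM_M against BMM (6.6%) and 5 in FLM_G against BMM (16.9%). The DESeq2 calls include Cd163 in both comparisons and Olr1 in FLM_G against BMM. Cd163 had counts only in BMM and Olr1 only in FLM_G, so their calls are no test. On the deposited counts Cd36 changed direction in FLM_M against BMM, at 0.15 (adjusted p = 0.756, edgeR) and 0.064 (adjusted p = 0.974, DESeq2). So did Msr1, at 0.11 (adjusted p = 0.81, edgeR) and 0.027 (adjusted p = 0.99, DESeq2), and Stab2, at −1.58 (adjusted p = 0.599, DESeq2). None of them was called. The summed level was 576.7 FPKM in BMM, 748.6 in FLM_M and 1319 in FLM_G without scaling, and 1586 in FLM_G with upper-quartile scaling. Marco, Colec12 and, in both comparisons with FLM_G, Stab1 kept their direction and call under every alternative run. For Stab1 the counts are a weak check. They were 2.54% to 3.68% of the implied reads in BMM and FLM_M, where the library medians were 0.52% to 1.19%. Whether reads of the overlapping Nt5dc2 entered them was not tested. Depth limits Olr1 in BMM, Stab1 in FLM_G, Stab2 and Cd163, each at 116 reads or fewer per library.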

Other observations

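FLM_G replicate 3 had few counts for its FPKM over all genes, a median 0.393% of the implied reads over 6594 genes, against 1.13% and 1.09% in the other FLM_G libraries, and the receptor genes shared this. Its total count was 86.9% of the mean of the other 2 FLM_G libraries, while its count was 11.4% of theirs for Cd36, 14.4% for Scarb2, 20.1% for Msr1, 20.8% for Colec12, 29.8% for Olr1, 38.6% for Scarb1 and 44.5% for Marco. In scaled FPKM the same library was at 65.0% for Cd36, 77.3% for Msr1 and 92.2% to 109% for the other 5.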
